A study of Mus musculus with 20 samples.

Results

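The cytosolic ribosomal protein genes are the genes for the proteins of the 40S and 60S ribosomal subunits, which carry out translation in the cytosol. They were taken as the rows of the deposited table that are typed as protein coding and whose name has the pattern Rps, Rpl or Rplp, then a number, with at most one closing letter a, l or x. The rule found 79 of 38924 rows: 30 Rps genes of the small subunit, 46 Rpl genes of the large subunit, and the 3 stalk genes Rplp0, Rplp1 and Rplp2. They lie on 19 chromosomes, and 4 of them (Rpl10, Rpl36a, Rpl39 and Rps4x) lie on the X chromosome. The rule does not match every ribosomal protein name, and others, such as Rpsa and Rpl22l1, are given separately.

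Poly(A) RNA was sequenced from the livers of 20 male mice, 5 in each of 4 groups. NDWT and NDKO mice received control chow, and HFWT and HFKO mice CDAHFD, a choline deficient, L-amino acid defined diet with a high fat content, for 12 weeks. WT mice were C57BL/6J (C57/BL6 in the labels), and TSP-1 null mice were Thbs1 knockout mice of a commercial line. All were bought at 5 weeks of age and acclimated for 1 week. Values are FPKM, that is, fragments per kilobase of gene length, scaled to the total of fragments assigned to genes, and libraries held 15641545 to 23276322 such fragments. Thbs1, the gene targeted, did not follow the labels. It was at 0.170, 0.326, 0.268, 0.058 and 0.165 FPKM in NDWT and at 1.01, 1.5, 0.986, 1.90 and 1.13 FPKM in NDKO, higher in every null library than in any WT library. Its values were 5.77, 6.10, 3.46, 3.91 and 3.86 FPKM in HFWT and 3.30, 3.32, 3.05, 3.14 and 4.40 FPKM in HFKO. Genotypes are therefore given as the libraries were labelled. The tissue label was met, with hepatocyte markers summing to 29633 to 51044 FPKM in every library.

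A ribosome contains one copy of nearly every one of these proteins, so a cell makes them in matched amounts, and their mRNAs are among the most abundant and the most evenly expressed in any tissue. Most of these mRNAs begin with a C followed by a run of C and T (in the RNA, U), the 5′ terminal oligopyrimidine or TOP start. Through it the mTOR pathway and the protein Larp1 set how strongly they are translated. Several members also act outside the ribosome: Rpl5 and Rpl11 bind Mdm2 and so hold up p53, and Rps6 is the substrate of the S6 kinases.

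The TOP start was looked for in the RefSeq promoter sequences (GRCm38.p6, 250 bases before to 50 after each annotated start), which held 58 of the members. The lines below show 15 bases before and 15 from the annotated start on the gene's own strand, with the first C and the run of C and T after it in capitals. The first 5 genes carry the run exactly at the start. In Rpl12 and Rps12 it begins 2 and 8 bases downstream. These 7 were chosen to show the run at and after the start, in genes that differ in their diet difference, and Rpl39l and Rpl10l, copies restricted to other tissues, because they carry the run only upstream of the start.
Rps6, chr4:86857353-86857382, minus strand: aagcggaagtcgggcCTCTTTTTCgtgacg
Rps18, chr17:33955651-33955680, minus strand: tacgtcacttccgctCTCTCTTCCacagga
Rps27, chr3:90213634-90213663, minus strand: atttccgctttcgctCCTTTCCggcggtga
Rpl28, chr7:4792950-4792979, plus strand: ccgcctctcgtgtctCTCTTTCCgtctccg
Rpl38, chr11:114668565-114668594, plus strand: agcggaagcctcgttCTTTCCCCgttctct
Rpl12, chr2:32961697-32961726, plus strand: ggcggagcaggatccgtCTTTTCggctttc
Rps12, chr10:23787195-23787224, minus strand: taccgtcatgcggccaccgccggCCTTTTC
Rpl39l, chr16:10170213-10170242, plus strand: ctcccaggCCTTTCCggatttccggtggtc
Rpl10l, chr12:66284387-66284416, minus strand: tttggCCTCCattttgcggctggcggtggg

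A C followed by 4 bases of C or T stood exactly at the annotated start in 13 of the 58 members (22.4%) and in 3.01% of all 27025 genes with a promoter. Anywhere within 10 bases of the annotated start the shares were 58.6% and 29.9%. Among other letters, searched on both strands of the 300 bases, CCGGAAG (the core bound by ETS factors such as GABP) was found in 41.4% of the members and 9.93% of all genes. AAGATGGC (bound by YY1) was found in 8.62% and 3.19%, GGGCGG (bound by SP factors) in 60.3% and 38.2%, CACGTG (the E-box bound by Myc and others) in 10.3% and 8.09%, and CCAAT (bound by NF-Y) in 29.3% and 41.1%. The 100 bases before the start of 3 members show the ETS core in capitals, with the GGGCGG of Rpl38 also in capitals.
Rps6, chr4:86857368-86857467, minus strand: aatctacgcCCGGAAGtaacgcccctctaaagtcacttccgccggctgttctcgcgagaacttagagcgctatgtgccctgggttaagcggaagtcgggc
Rps18, chr17:33955666-33955765, minus strand: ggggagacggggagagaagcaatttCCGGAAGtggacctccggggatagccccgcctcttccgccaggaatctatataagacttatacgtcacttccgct
Rpl38, chr11:114668480-114668579, plus strand: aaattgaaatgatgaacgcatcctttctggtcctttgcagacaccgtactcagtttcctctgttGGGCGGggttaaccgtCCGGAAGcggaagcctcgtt
These matches describe the letters and not a bound site.

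Of the 79 genes, 76 passed the filter of more than 0.5 FPKM in at least 5 libraries. The other 3 are copies known from muscle and testis. Rpl3l, the muscle copy of Rpl3, reached at most 0.265 FPKM (9 fragments). Rpl39l reached at most 0.209 FPKM (3 fragments) and was at 0 in 16 libraries, and Rpl10l was at 0 fragments in all 20. By contrast, their widely expressed counterparts Rpl3, Rpl39 and Rpl10 averaged 224, 66.4 and 216 FPKM over the 20 libraries.

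One row does not hold the gene it is named for. The row named Rpl24 (ENSMUSG00000022601.11, GRCm38 chromosome 16, 55973883 to 56008913, plus strand) has the identifier and the position of Zbtb11, a zinc finger gene, in GENCODE M21. The position of Rpl24 there (55966275 to 55971435) belongs to a row named RPL24 in capitals, which the rule does not match and which held 0.054 to 0.927 FPKM. The row named Rpl24 averaged 2.73 FPKM, against 14.1 to 740 FPKM for the other 75 tested genes. It was kept in the counts, where it was never called with FPKM as deposited, and is named wherever it sets a value.

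Levels differed widely between members. The mean FPKM over all libraries was highest for Rplp1 (740), a protein of the acidic stalk that recruits elongation factors, then for Rps27 (593) and Rps2 (383). The deposited gene lengths run from 0.521 to 9.78 times the length of the main mRNA in GENCODE M21. Some are shorter than that mRNA, as for Rps24 (840 against 1613 bases), so the deposited lengths follow another annotation. When the fragments were set per length of the main mRNA instead, which mixes these annotations, the order began with Rplp1 (734) and Rps2 (702). Rpl41 (558), Rpl10 (554) and Rps18 (525, on the FPKM scale) came next. The median was 266.4 over 75 genes, with an interquartile range of 204 to 358. Rps20 was lowest (36.6), with only a 3706-base mRNA annotated as coding. The median was 267 for 30 small subunit genes, 242 for 42 large subunit genes, and 383 for the 3 stalk genes.

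Replicates were close. The coefficient of variation of a gene between the 5 libraries of a group had a median between 6.50% (HFWT) and 7.70% (NDKO). Much of the sequence is shared with other genes: of the 31-base stretches of a member's main mRNA, a median of 63.4% (range 2.60% to 99.0%) also occur in transcripts of other genes, mostly processed pseudogenes. How reads that fit several places were counted is not given in the sources used here, so the level of a single member is uncertain.

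CDAHFD raised the share of the library that came from these genes in both genotypes. Together the 79 genes took 1.31%, 1.44%, 1.22%, 1.30% and 1.30% of the fragments in the NDWT libraries and 1.40%, 1.28%, 1.38%, 1.37% and 1.25% in NDKO. They took 1.83%, 1.85%, 1.91%, 1.95% and 1.80% in HFWT and 1.62%, 1.67%, 1.81%, 1.86% and 1.77% in HFKO. Every CDAHFD library thus lay above every control diet library, and the genotypes overlapped on both diets. The summed level rose from 10839 ± 635 to 15481 ± 624 FPKM in WT (1.43-fold; SD, n = 5) and from 10937 ± 568 to 14381 ± 806 FPKM in libraries labelled TSP-1 null (1.31-fold). No test was made of these sums. In bulk tissue, a change in the cells present and a change in the RNA per cell cannot be told apart.

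**Figure D1:**
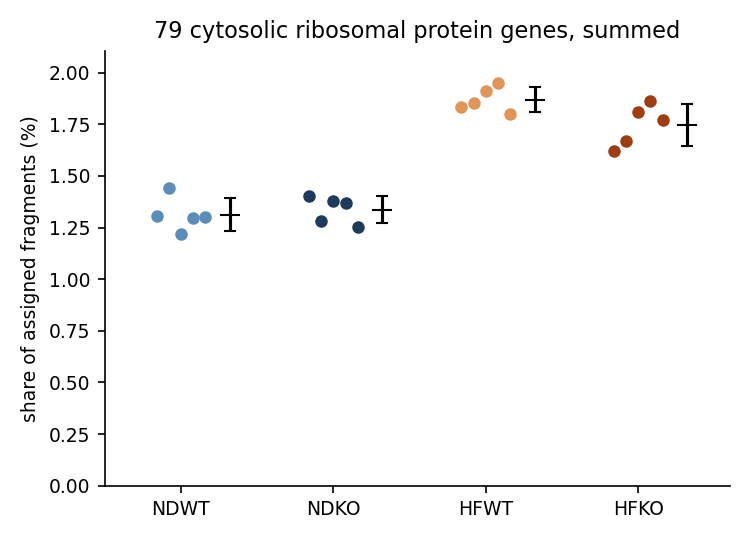
Share of assigned fragments, in percent, that came from the 79 genes. Points are the 5 libraries of each group, the bar beside them is the mean and SD. Control diet libraries lie between 1.22% and 1.44% and CDAHFD libraries between 1.62% and 1.95%.

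In WT the rise relative to the library total was broad and even, although its median turned to −0.05 with median of ratios scaling, as described further on. All 76 genes tested had a log2FC above 0 between HFWT and NDWT, with a median of 0.51 (1.43-fold) and an interquartile range of 0.43 to 0.61. Over all 14524 tested genes, 11830 were above 0. At the thresholds of the study (limma, FDR under 0.05 by Benjamini-Hochberg over the 14524 genes tested, with a log2FC past 0.58 in size) 28 genes were higher and 0 were lower. This share of 36.8% is below that over all tested genes, where 44.1% were called higher and 4.62% lower. By FDR alone 72 of the 76 (94.7%) were higher, against 64.4% of all genes. The median of all tested genes was 0.53, with an interquartile range of 0.953 log2 units, against 0.178 for the ribosomal protein genes. The 28 called genes comprised 13 small subunit genes, 14 large subunit genes and Rplp1.

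The genes that rose most in WT were Rpl12, Rps12 and Rpl3. Rpl12 (ENSMUSG00000038900.11, GRCm38 chromosome 2, 32961559 to 32964496), which forms the base of the stalk, was at 54.5, 66.3, 54.3, 56.0 and 58.9 FPKM in NDWT and at 110, 114, 116, 117 and 107 FPKM in HFWT. It was at 65.0, 57.3, 61.7, 62.2 and 57.5 FPKM in NDKO and at 91.5, 96.6, 108, 119 and 104 FPKM in HFKO. No CDAHFD library overlapped a control diet library in either genotype, and Rpl12 rose 1.95-fold in WT (log2FC 0.96, SE 0.07, FDR 4.43e-10) and 1.70-fold in TSP-1 null (log2FC 0.77, FDR 1.17e-08). Rps12 (chromosome 10, 23785211 to 23787195), a protein near the beak of the small subunit, was at 255, 265, 245, 230 and 254 FPKM in NDWT and at 441, 449, 465, 504 and 550 FPKM in HFWT. It was at 260, 225, 255, 259 and 224 FPKM in NDKO and at 382, 411, 418, 453 and 434 FPKM in HFKO. Its groups were equally separate, with a log2FC of 0.94 in WT (FDR 6.64e-10) and 0.78 in TSP-1 null (FDR 1.12e-08). Rpl3 (chromosome 15, 80077781 to 80083406), a core protein beside the peptidyl transferase center, went from 158 ± 13.5 to 296 ± 21.1 FPKM in WT (log2FC 0.91, FDR 2.10e-09). In TSP-1 null it went from 171 ± 15.2 to 273 ± 16.7 FPKM (log2FC 0.67, FDR 1.52e-07).

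At the other end, 4 of the 76 rows did not pass the FDR in WT. They were Rps27, its paralog Rps27l, Rps2 and the row named Rpl24. Rps27, the most abundant small subunit mRNA by FPKM, was at 520, 571, 525, 642 and 556 FPKM in NDWT and at 680, 687, 728, 765 and 491 FPKM in HFWT. Its groups overlapped through HFWT library 5 alone (log2FC 0.24, SE 0.11, FDR 0.0517). That library also held 5.55% of its fragments on the rRNA repeat genes Gm26924 and Gm23935, against 0.176% to 1.98% in the other 19, and without it the log2FC was 0.35 (FDR 0.00178). The FDR of Rps27 ran from 2.87e-04 to 0.388 over the alternatives, and its direction turned with median of ratios scaling (log2FC −0.32, FDR 0.0153) and upper quartile scaling (−0.20). Rps2, a protein of the mRNA entry channel, was at 391, 425, 326, 345 and 346 FPKM in NDWT and at 438, 398, 407, 414 and 367 FPKM in HFWT, with overlapping groups (log2FC 0.15, SE 0.08, FDR 0.0943). Rps27l, a p53 target whose protein can take the place of Rps27 in the ribosome, was at 114, 129, 123, 127 and 134 FPKM in NDWT and at 115, 139, 146, 134 and 127 FPKM in HFWT (log2FC 0.07, SE 0.07, FDR 0.363). It had the smallest diet difference of the 76 members tested in WT. The row named Rpl24 had a log2FC of 0.10 (FDR 0.48).

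In libraries labelled TSP-1 null the pattern was alike with a smaller median, which turned negative with upper quartile (−0.07) and median of ratios scaling (−0.17). The log2FC was above 0 for 75 of 76 rows, the exception being the row named Rpl24 (log2FC −0.21, FDR 0.12). Of all 14524 tested genes 11946 were above 0. The median of the members was 0.37 (1.29-fold) against 0.50 over all tested genes. At the same thresholds 12 genes (15.8%) were higher and 0 were lower, against 41.9% and 4% of all tested genes. By FDR alone 71 were higher (93.4%, against 64%), and Rps2, Rps27, Rpl27a, Rpl36 and the row named Rpl24 did not pass. The groups did not overlap for 72 genes in WT (94.7%, against 50.5% of all genes) and for 62 genes in TSP-1 null (81.6%, against 52.7%).

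**Figure D2:**
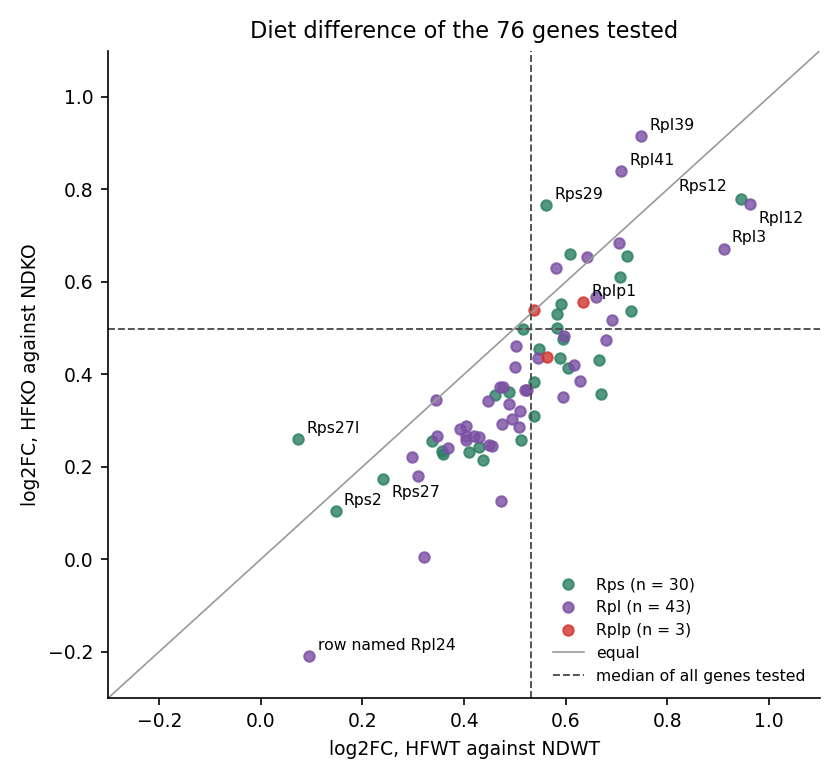
Diet log2FC of the 76 tested rows in WT (horizontal) and in libraries labelled TSP-1 null (vertical), coloured by subunit. FPKM are as deposited, and with median of ratios scaling the medians turn to −0.05 and −0.17. Points below the solid line, where the log2FC is larger in WT, number 68 of 76 (over all tested genes 7944 of 14524). Dashed lines mark the medians of all tested genes, 0.53 and 0.50.

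Both diet comparisons called 11 of the genes: Rpl3, Rpl12, Rpl32, Rpl35, Rpl38, Rpl39, Rpl41, Rps12, Rps15a, Rps20 and Rps24. This is 14.5% of the members, against 36.2% of all tested genes. A further 17 (22.4%, against 7.98%) were called in WT alone and Rps29 (1.32%, against 5.75%) in TSP-1 null alone, but no member passed the test of the difference between the genotypes, so these are not shown to differ. The order of the genes was much alike in the 2 comparisons, which share no library (Spearman's rho 0.88 across 75 members, without the row named Rpl24, a description across genes that are not independent). Rpl39, an X-linked protein that lines the exit tunnel, was at 46.6, 50.8, 52.7, 53.3 and 51.2 FPKM in NDWT and at 81.4, 85.1, 92.8, 93.4 and 76.0 FPKM in HFWT. It was at 41.4, 34.6, 47.4, 54.1 and 47.3 FPKM in NDKO and at 79.9, 87.1, 84.4, 86.2 and 82.1 FPKM in HFKO. It rose in both, by a log2FC of 0.75 in WT (FDR 4.31e-07) and of 0.91 in TSP-1 null (SE 0.09, FDR 3.35e-08), where it was the gene that rose most. Rpl41, the smallest ribosomal protein, had a log2FC of 0.71 and 0.84 (FDR 1.90e-06 and 2.32e-07). Rps29, a zinc-binding protein of the small subunit, was uneven on the control diet, at 122, 117, 211, 201 and 204 FPKM in NDKO, and lay between 265 and 300 FPKM in HFKO (log2FC 0.77, SE 0.15, FDR 1.38e-04). Without HFWT library 5 it passed in WT as well (log2FC 0.65), and likewise without NDWT library 2, and Rplp1 passed in TSP-1 null without NDKO library 1 or HFKO library 1 (0.59).

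**Figure D3:**
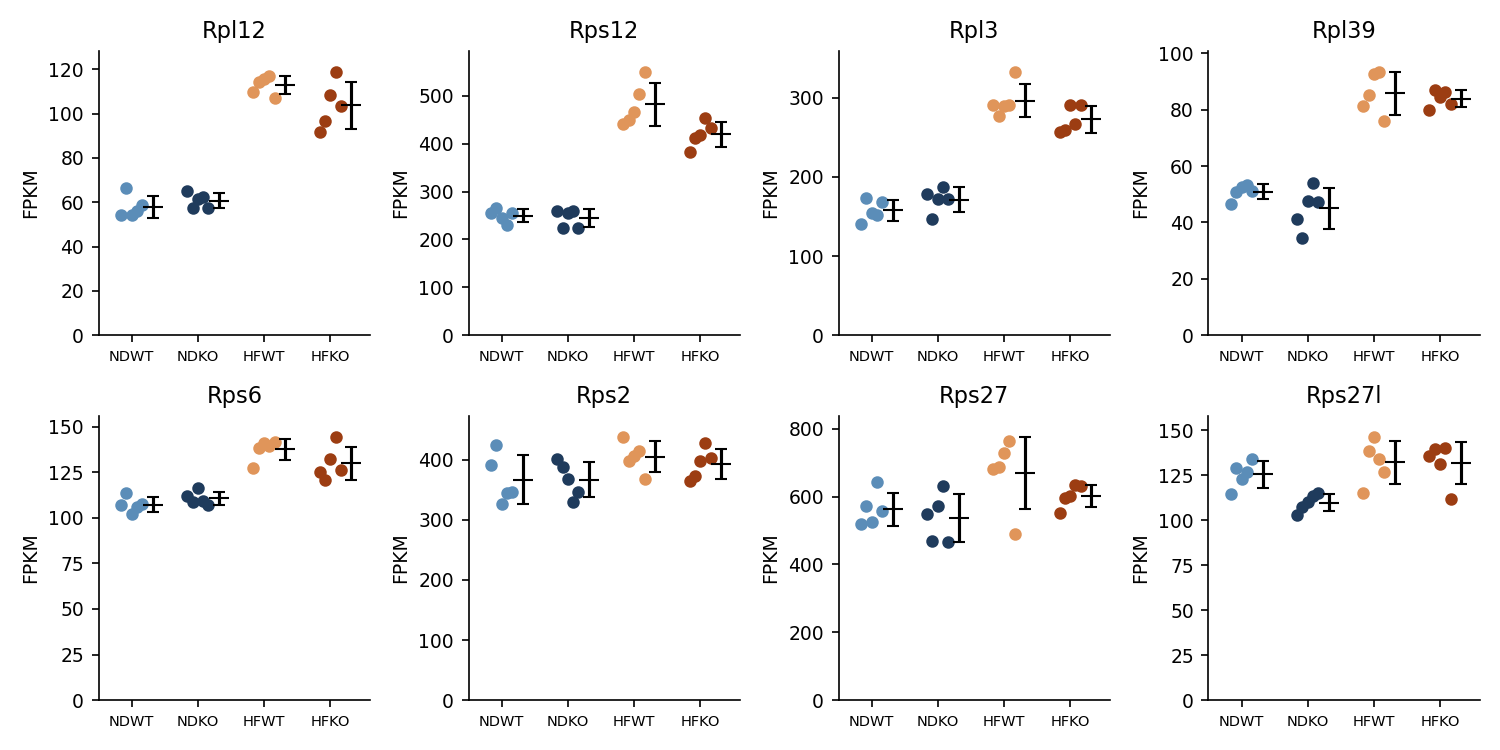
FPKM of 8 genes in each of the 20 libraries by group, with mean and SD at the right of each group. Rpl12, Rps12, Rpl3, Rpl39 and Rps6 separate the diets without overlap, while Rps2, Rps27 and Rps27l do not. FPKM are as deposited. Of all tested genes, 50.5% in WT and 52.7% in TSP-1 null were likewise higher on CDAHFD without overlap.

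With FPKM as deposited, the parts of the ribosome had similar medians. The median log2FC was 0.54 in WT and 0.40 in TSP-1 null for the 30 small subunit genes, 0.49 and 0.34 for the 43 large subunit genes tested, and 0.56 and 0.54 for the 3 stalk genes. Of these 3, Rplp1 was called in WT (589 ± 65.3 to 911 ± 48.2 FPKM, log2FC 0.63, FDR 2.83e-07), while Rplp0 (log2FC 0.54) and Rplp2 (0.56) passed the FDR and stayed under the fold threshold. The 4 X-linked genes had medians of 0.54 and 0.50. Among the genes with roles outside the ribosome, Rpl5 had a log2FC of 0.40 and 0.26 (FDR 5.5e-05 and 0.0037) and Rpl11 of 0.47 and 0.29 (FDR 2.8e-06 and 6.0e-04). Rps6 was at 107, 114, 102, 106 and 107 FPKM in NDWT and at 127, 138, 141, 139 and 141 FPKM in HFWT, a small but fully separate rise (log2FC 0.36, SE 0.05, FDR 6.0e-06), and had a log2FC of 0.23 in TSP-1 null (FDR 7.63e-04). Rps19, the gene most often mutated in Diamond-Blackfan anemia, had a log2FC of 0.67 and 0.43 (FDR 4.9e-07 and 9.6e-05). Rpl32, Rpl13a and Rps18, used at times as reference genes for quantitative PCR, had a log2FC of 0.58, 0.59 and 0.51 in WT and of 0.63, 0.35 and 0.26 in TSP-1 null, each past the FDR.

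Across 75 members, the order of the log2FC was almost unrelated to abundance and length. Spearman's rho with mean FPKM was −0.05 in WT and −0.06 in TSP-1 null, with the deposited length −0.06 and −0.06, and with the share of 31-base stretches found in other genes −0.07 and −0.13. These points share libraries and are given as descriptions. The same medians were set beside the promoter letters, as descriptions. The 13 genes with the TOP start exactly at the annotated start, among them Rps6, Rps18, Rps27, Rpl28 and Rpl38 shown above, had a median log2FC of 0.51 in WT, as did the 42 other tested genes with a promoter sequence. In TSP-1 null the medians were 0.37 and 0.36. Most of these mRNAs are known for a TOP start, so many of the 42 may have one that the annotated start misses. This split therefore cannot compare genes with and without a TOP start. For the 23 tested genes with CCGGAAG and the 32 without it they were 0.51 and 0.51 in WT. The 5 genes with AAGATGGC had medians of 0.35 (WT) and 0.27 (TSP-1 null), against 0.51 and 0.38 for the 50 without it. The 34 genes with GGGCGG had medians of 0.54 and 0.40, against 0.47 and 0.29 for the 21 without it.

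These differences are relative to the library total, and their direction depended on that scale. The 50 genes with the most fragments took 29.8% to 34.6% of the fragments in control diet libraries and 21.2% to 28.0% in CDAHFD libraries, and the median of all tested genes was itself at 0.53 and 0.50. With the library total taken without those 50 genes, the medians of the ribosomal protein genes were 0.38 and 0.23. In this setting 6 and 5 of them were called higher, and the share of all genes called is not given here. With upper quartile scaling they were 0.07 and −0.07. With median of ratios scaling, which centers all genes near 0, they were −0.05 and −0.17, no member was called higher, and by FDR alone 4 were higher and 16 lower in WT (5.26% and 21.1%, against 30.5% and 30.8% of all genes) and 4 higher and 35 lower in TSP-1 null (5.26% and 46.1%, against 30.3% and 29.4%). The 4 higher ones were Rpl3, Rpl12, Rps12 and Rps16 in WT, and Rpl12, Rps12, Rpl39 and Rpl41 in TSP-1 null. With upper quartile scaling the balance in WT was the other way, with 22 higher and 3 lower by FDR alone (28.9% and 3.95%, against 36.1% and 23.9%), while in TSP-1 null 8 were higher and 22 lower (10.5% and 28.9%, against 34.8% and 23.6%). Under both of these scalings 1 row was called lower in TSP-1 null, and it was the row named Rpl24.

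Relative to all tested genes, the members lay 0.02 below the median in WT and 0.13 below it in TSP-1 null with FPKM as deposited. This distance was 0.04 and 0.16 with median of ratios scaling, 0.04 and 0.15 with upper quartile scaling, and 0.03 and 0.14 without the 50 most abundant genes. Quantile normalization, which sets each library to the same distribution of values by rank, gave another picture. The members then had medians of 0.54 and 0.39 with all genes at −0.06 and −0.06. Of the members 32 and 14 were called higher, with the row named Rpl24 called lower in both. The share of all genes called under this scaling is not given here, so these counts cannot be set against it.

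**Figure D4:**
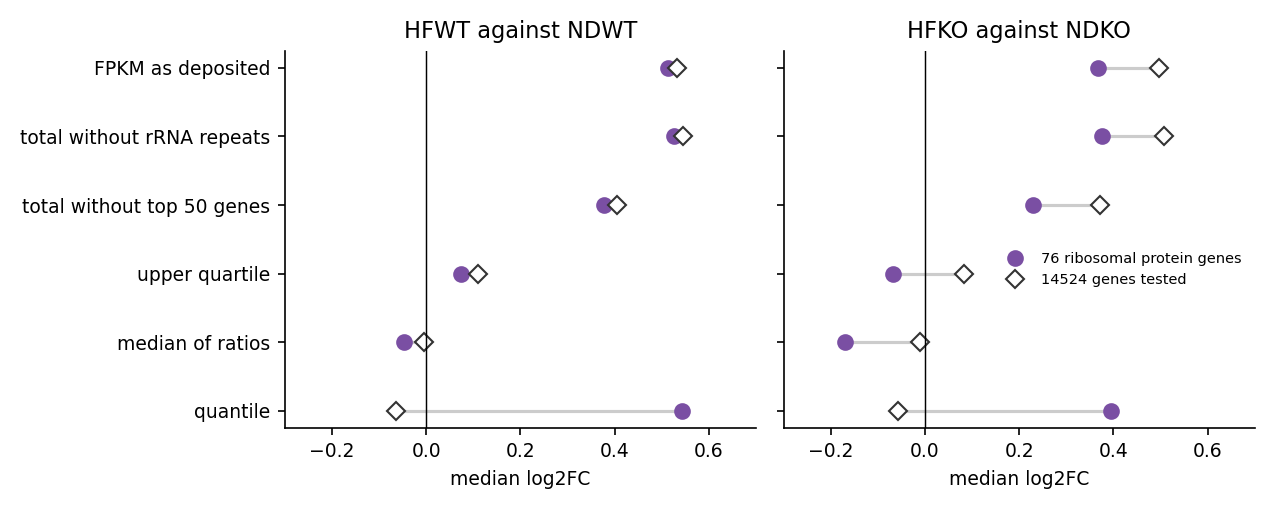
Median log2FC of the 76 ribosomal protein rows (filled circles) and of all 14524 tested genes (open diamonds) under 6 scalings, for WT (left) and libraries labelled TSP-1 null (right). With total-based, upper quartile and median of ratios scalings both medians shift together, from 0.51 to −0.05 and from 0.37 to −0.17 for the ribosomal protein genes, while quantile normalization separates them.

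The cell make-up of the tissue changed with the diet at the same time, and its part in these differences was not tested. The counts below stand beside 44.1% of all tested genes called higher in WT and 41.9% in TSP-1 null. The shares called lower were 4.62% and 4%. Of the marker lists, macrophage genes summed to 230 to 378 FPKM on the control diet and to 805 to 1688 FPKM on CDAHFD (9 of 10 in the table, 7 higher and 1 lower in each genotype). All 9 stellate cell and myofibroblast markers were called higher, with sums of 50.7 to 71.8 FPKM on the control diet and 257 to 504 FPKM on CDAHFD. The 5 cholangiocyte markers and the 5 markers of dividing cells were also all higher in both genotypes, as were 9 of 10 T and B cell markers and the 3 tested neutrophil markers of 6, of which Ly6g was at 0 in NDWT and HFWT and Mpo in NDWT and NDKO. Of 9 hepatocyte markers, 2 were called lower in WT and 3 in TSP-1 null. Of 7 endothelial markers 1 and 2 were higher, and of 5 erythroid markers 1 and 2 were lower. Of 6 pancreatic acinar markers 1 was tested and not called, and Pnlip and Amy2b were at 0 in all groups.

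No ribosomal protein gene was called between the genotypes on the control diet. The count was 0 of 76 with limma and 0 with voom on recovered fragments, against 4.77% of all tested genes, and 4 genes (5.26%, against 27.3%) had an unadjusted p under 0.05 with limma and 4 with voom. Those 4 with limma were Rpl13a (log2FC 0.19, FDR 0.126), Rps21 (−0.15, FDR 0.137), Rpl39 (−0.19, FDR 0.171) and Rps27l (−0.19, FDR 0.0864). Rps27l was at 103, 108, 110, 114 and 115 FPKM in NDKO, of which 1 library lay within the range of NDWT. The median log2FC of the members was 0.01, against −0.07 over all tested genes. Above 0 were 42 of 76 members and 5607 of all 14524 genes tested. With median of ratios scaling 69 were above 0 and 13 had an unadjusted p under 0.05, and with upper quartile scaling 64 and 11. Under each of these scalings Rpl13a alone passed the FDR, higher in NDKO, and no member was called. The shares of all genes under these scalings are not given here, so these counts cannot be set against them.

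On CDAHFD the libraries labelled TSP-1 null stood slightly lower for most members, and again none was called. The count was 0 of 76 with both limma and voom (0.496% of all tested genes were called), while 31 members (40.8%) had an unadjusted p under 0.05 with limma and 28 with voom. All 31 were lower in HFKO, which held for 14.2% of all genes. Of the 76 fitted values 69 were below 0, against 10260 of all 14524 genes tested. The median was −0.12, against −0.10 over all genes. Rpl37, a zinc-binding protein of the large subunit, was at 166, 158, 179, 178 and 164 FPKM in HFWT and at 129, 133, 147, 147 and 144 FPKM in HFKO. It was the 1 member past the FDR (against 0.868% of all genes that were lower), without overlap between the groups and under the fold threshold (log2FC −0.27, SE 0.06, FDR 0.0401). This pass was lost with a replicate block (FDR 0.0506), with median of ratios scaling (0.298), upper quartile scaling (0.183) and the total without the 50 most abundant genes (0.102), in a fit of the compared groups only (0.092), without the eBayes trend (0.0581), without NDWT library 3 or 5 (0.0504 and 0.0512), and without any 1 library of HFWT or HFKO other than HFKO library 5 (0.0550 to 0.112). The groups did not overlap, with HFKO lower, for 9 members (11.8%, against 4.13% of all genes), Rpl37 and Rpl27a among them. With median of ratios scaling the median was −0.02 and 2 members had an unadjusted p under 0.05, so this lower level moved with the scale as well. The shares of all genes with an unadjusted p under 0.05 are not given here for that scaling or for voom.

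Whether the diet difference was unequal in the 2 genotypes was tested gene by gene, and 0 of 76 members passed, with limma and with voom, against 0.647% of all genes. An unadjusted p under 0.05 was reached by 15 members with limma, all of them negative (19.7%, against 8.17% of all genes), and by 11 with voom. With median of ratios scaling it was reached by 3, with a replicate block by 8 and with quantile normalization by 24. The shares of all genes in these settings and with voom are not given here, so these counts cannot be set against them. The interaction had a median of −0.13, against −0.03 over all genes. It was below 0 for 68 of 76 rows and for 7944 of all 14524 genes tested. The lowest FDR was 0.143 for Rpl27a (log2FC −0.35, SE 0.11), whose diet difference was 0.47 in WT and 0.13 in TSP-1 null. At the other end Rps29 (0.20, SE 0.21), Rps27l (0.19, SE 0.10) and Rpl39 (0.17, SE 0.13) had interactions above 0 that did not pass. The diet difference of the ribosomal protein genes is therefore not shown to depend on genotype. The median of −0.13 was −0.10 with median of ratios scaling.

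With FPKM as deposited, most other lists of the translation machinery had smaller medians, and the genes that build the ribosome a similar one. No test was made between lists. Of 7 tested cytosolic ribosomal proteins with names outside the rule, 2 were called higher in WT and 1 in TSP-1 null, with medians of 0.33 and 0.22. They were Rpl22l1, a paralog of Rpl22 (log2FC 0.98, FDR 1.19e-06, and 0.61, FDR 2.82e-04), and Rpsa, which also serves as a laminin receptor (0.60 in WT, FDR 2.93e-06). Some of these calls lay near the fold threshold. That of Rpl22l1 in TSP-1 null was lost without NDKO library 2 (0.52) or 3 or HFKO library 4, and that of Rpsa without NDWT library 3 or 4 or HFWT library 3 or 4 (0.56). Of 37 ribosome biogenesis genes, 18 were called higher in WT and 4 in TSP-1 null and none was lower (of all tested genes 44.1% and 41.9% were called higher), with medians of 0.57 and 0.39. Pes1, which acts in the maturation of the large subunit, went from 9.74 ± 0.686 to 16.7 ± 1.52 FPKM in WT (log2FC 0.77, FDR 2.90e-09), and Nhp2, Ltv1 and Heatr1 had a log2FC of 0.80, 0.74 and 0.86. In TSP-1 null the same 4 genes had a log2FC of 0.50, 0.55, 0.52 and 0.41 and stayed under the fold threshold.

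Against the same shares, 5 of 30 translation initiation factors were higher in WT and 2 higher and 1 lower in TSP-1 null, with medians of 0.24 and 0.25. Eif6, which binds the 60S subunit and keeps it from joining the 40S, stood out: it was at 23.4, 23.5, 20.4, 21.6 and 19.0 FPKM in NDWT and at 55.7, 52.0, 50.1, 47.6 and 46.4 FPKM in HFWT, without overlap (log2FC 1.22, SE 0.08, FDR 1.5e-10), and rose by 1.00 in TSP-1 null (FDR 2.98e-09). Eif2b2 was also called in both (0.67 and 0.67), Eif5b (0.76) and Eif2b3 (0.80) in WT. Of 17 elongation factors and other mRNAs known for a TOP start, 2 were higher and none lower in each genotype, with medians of 0.22 and 0.18. Those 2 were Vim (log2FC 3.41 and 3.09), the intermediate filament of mesenchymal cells, and Hnrnpa1 (0.98 and 0.82). Of 5 noncoding snoRNA host genes, Snhg5 was higher in WT (log2FC 0.79, FDR 9.49e-05), and the medians were 0.18 and 0.01.

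Among 25 tested genes that control ribosomal protein output, 6 were higher in WT, with a median of 0.24. In TSP-1 null 5 were higher and 1 lower, with a median of 0.18. Over all tested genes, 44.1% were called higher in WT and 41.9% in TSP-1 null, and 4.62% and 4% lower. Myc, which drives transcription of ribosome genes, was at 1.41, 1.90, 1.06, 0.858 and 0.886 FPKM in NDWT and at 7.57, 8.61, 5.94, 9.72 and 5.43 FPKM in HFWT. It was at 3.26, 2.20, 3.31, 3.66 and 1.98 FPKM in NDKO and at 6.05, 8.19, 7.55, 7.92 and 9.48 FPKM in HFKO. It rose in both genotypes (log2FC 2.54, FDR 3.22e-09, and 1.44, FDR 6.56e-06). On the control diet every NDKO library lay above every NDWT library (log2FC 1.20, SE 0.21, FDR 0.00152), and its interaction did not pass (−1.11, FDR 0.0809). Its partner Max (0.75 in WT), its antagonist Mxd1 (0.99 and 1.10) and Mdm2, the p53 ligase that Rpl5 and Rpl11 bind (0.83 and 0.81), were called higher as well.

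The mitochondrial ribosomal proteins, which serve a separate ribosome inside the mitochondrion, had lower medians with FPKM as deposited. Of 75 tested, 3 were called higher in WT and 4 in TSP-1 null and none lower, with medians of 0.19 and 0.24. Of all genes 44.1% and 41.9% were called higher. By FDR alone 37 of 75 (49.3%, against 64.4% of all genes) were higher in WT and 1 was lower. No test was made of the difference between the 2 families. The pseudogene copies of cytosolic ribosomal proteins were checked for shared reads. Of 197 such rows, 47 were tested, with medians of 0.67 and 0.52, and together all 197 summed to 107 to 138 FPKM on the control diet and to 155 to 198 FPKM on CDAHFD. The members summed to 10839 FPKM in NDWT.

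**Figure D5:**
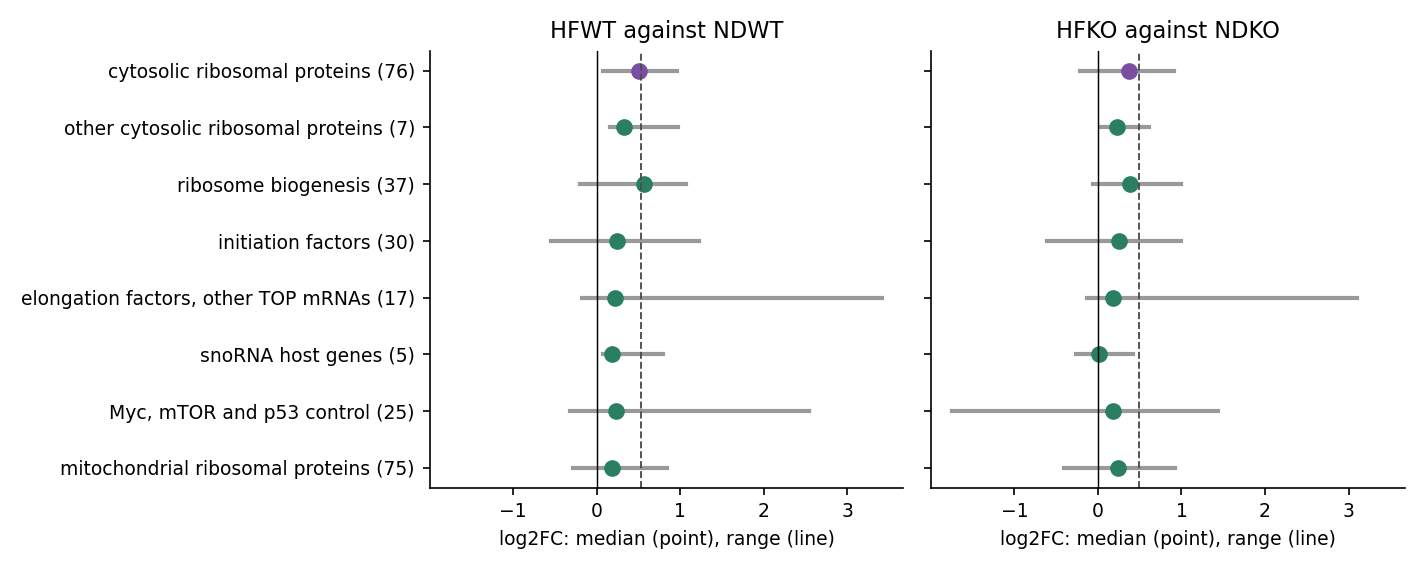
Median (point) and range (line) of the log2FC in each gene list, with the number of genes tested in parentheses, for WT (left) and libraries labelled TSP-1 null (right). The dashed line is the median of all tested genes, 0.53 and 0.50, and the cytosolic ribosomal proteins (0.51 and 0.37) and the ribosome biogenesis genes (0.57 and 0.39) lie nearest to it among the 8 lists drawn. All values are from FPKM as deposited.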

How the data were processed

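Gene FPKM for 20 liver libraries (5 per group) were used as the authors deposited them, to 3 decimals. The study used QuickRNASeq, and the submitters' processing notes name STAR 2.5.2, featureCounts and Subread 1.5.1. They also name a human build, but coordinates in the file are those of GRCm38. The liver lobe is named differently in the series text (medial) and in the paper (lateral). FPKM multiplied by length and library total came out whole (within 0.1 fragments) for all values precise enough to check, which gave fragments for voom. The length column, also as deposited, holds gene lengths in bases.

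limma 3.58.1 in R 4.3.3 was fitted to log2(FPKM + 0.1) of the 14524 genes that exceeded 0.5 FPKM in 5 or more libraries, with 1 mean per group and eBayes with trend. Tests were two-sided and called at FDR (Benjamini-Hochberg) under 0.05 with a log2FC past 0.58 in size, as in the study. Members and lists were chosen with earlier results of these data known. Named genes were the called members (5 highest and 5 lowest where over 10), a fixed set with paralogs, stalk and reference genes, the extreme levels and up to 4 called genes of each list. Other members in the text, Rpl27a, Rpl28, Rpl36 and Rpl37 among them, were named after their values were seen. Some members are counted but not reported by name here. Replicate numbers did not pair the samples. Nothing in the labels says how mice were housed or sampled together, so p-values measure the spread between these mice. No 2 libraries of the same group were copies (chi-square per degree of freedom at least 12.1 over 40 pairs), and pairs across groups were not checked in this way. Scripts were tested on simulated data. Tables used Python 3.11.15, pandas 2.3.3 and matplotlib 3.10.9.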

Additional observations from a re-analysis of the deposited data

Results flagged for a closer look

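Of the 127 group values of named members and of the summed share that were tested, 7 held a library far from the other 4 of its group by Dixon's criterion, close to the 1 in 20 that chance gives. HFWT library 5 was high for Rpl3 (332 FPKM, others 277 to 291) and HFWT library 1 low for Rps6 (127 FPKM, others 138 to 141). NDKO library 4 was high for Rps15a (12.2 FPKM, others 9.71 to 10.3) and HFKO library 4 for Rpl10 (270 FPKM, others 223.0 to 235.5). The remaining 3 were Rpl39l, at 0.06 FPKM in NDWT library 5, 0.209 FPKM in HFWT library 5 and 0.063 FPKM in HFKO library 5, each on at most 3 fragments.

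The effect of the labelled genotype on Thbs1 differed between the diets (interaction log2FC −2.66, FDR 0.0023 with limma). It bears on every comparison between genotypes given above, since Thbs1 is the gene by which the labels would be checked.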

How the results depend on the processing

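The number of called members depended on the scaling. With median of ratios scaling it was 0 in WT and 1 (lower) in TSP-1 null, and with upper quartile scaling again 0 and 1 (lower), the row named Rpl24 in both. Without the 50 genes with the most fragments it was 6 and 5, and the share of all genes called in that setting is not given here. Without a fold threshold it was 72 and 71, and 1 for genotype on CDAHFD. The member medians were −0.048 and −0.17 with median of ratios, 0.075 and −0.068 with upper quartile scaling and 0.38 and 0.23 without the 50 genes. For genotype they were 0.086 on the control diet and −0.018 on CDAHFD with median of ratios, and 0.078 and −0.048 with upper quartile scaling. The ratio of summed levels was 0.968 (HFWT over NDWT), 0.907 (HFKO over NDKO) and 0.996 (HFKO over HFWT) with median of ratios, 1.05 and 0.972 with upper quartile scaling, and 1.30 and 1.20 without the 50 genes, against 1.43, 1.31 and 0.929 as deposited. The falling share of the 50 genes on CDAHFD is built into the last of these settings, and otherwise the cause was not tested. Under quantile normalization Snhg5 and Eif2b3 turned in WT (log2FC −0.028 and −0.18).

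With each library left out in turn, the count was 20 to 35 in WT and 10 to 14 in TSP-1 null, and 0 in the other comparisons. The medians ranged from 0.49 to 0.54, 0.34 to 0.40, −0.01 to 0.04, −0.14 to −0.10 and −0.16 to −0.10. Counts stayed within 1.5 times of the main one with the pseudocounts, filters, eBayes settings, voom, the totals without rRNA repeat genes and the set without the row named Rpl24 (the last 2 chosen after seeing the data). Same-numbered libraries did not deviate together (30 pairs, r −0.133 to 0.0812, and in 8 the own number matched best), and with a replicate block 28 and 12 members were called and 0 in the other comparisons. Depth does not limit the tested members, which held at least 246 fragments per library, a lowest value set by the row named Rpl24. By contrast, Rpl3l, Rpl39l and Rpl10l were at or near the floor of 3 fragments.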
